A study of Mus musculus with 18 samples.

Results

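The CXC chemokine genes measured in this study of retinal detachment were Cxcl1, Cxcl2, Cxcl5, Cxcl9, Cxcl10, Cxcl12, Cxcl14, Cxcl16 and Pf4. They were found by symbol: every probe set (a group of short probes for 1 transcript) that the array's annotation gives to 1 of these symbols alone was taken. This gave 12 probe sets for 9 genes, out of 22626 probe sets tested and 12393 genes named on the array. Cxcl12, Cxcl14 and Cxcl16 have 2 probe sets each, and the other genes have 1. Where there are 2, the one of higher mean stands for the gene and the other is described beside it. The 12 probe sets were taken by symbol alone, but the 9 genes were chosen with earlier results of these data known.

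The retinas of Balb/cJ mice were detached by 1 uL of fluid placed under the retina, and taken after 2 h, 24 h or 7 d. The fluid was saline, or saline with 10 uM INS37217, also known as denufosol, an agonist of the nucleotide receptor P2Y2. At each time 3 arrays carried saline retinas and 3 carried INS37217 retinas, which makes 6 groups and 18 arrays. Each array held RNA pooled from more than 5 retinas, and the 3 of a group are biological replicates per the series' design text. All groups share the injection and the detachment, the labels give no ages of the mice, and no uninjected retina was analysed here. Every value below is a log2 value from the deposited table, where a difference of 1 is a doubling, and compares injected retinas with injected retinas.

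The arrays read as retina: the mean of 8 rod photoreceptor genes was 11.5 to 12.3 on every array. Lens genes were also high, with a 6-gene mean of 10.8 to 11.0 on saline 2 h arrays, 11.5 to 11.7 on all other 2 h and 24 h arrays and 11.8 to 11.9 at 7 d. Replicate 1 of every group stood apart from replicates 2 and 3, with a correlation of 0.9591 to 0.981 to them within its group against 0.9941 to 0.9966 between those. Group names follow the sample titles. The source names of 8 of the 9 INS37217 arrays mention saline only, and that of saline 7 d replicate 2 gives 2 h. The gap between the 3′ and 5′ actin probe sets, a sign of RNA quality, was 1.04 ± 0.0929 (SD, n = 3) in saline 2 h, 0.747 ± 0.0416 in INS37217 2 h and between 0.603 and 0.65 in the means of the other groups. In whole retina, a change in the number of cells that make an mRNA and a change per cell cannot be told apart.

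CXC chemokines are small secreted proteins, named for a pair of cysteines set 1 residue apart, that steer leukocytes through G protein-coupled receptors. Cxcl1, Cxcl2 and Cxcl5 bind Cxcr2 and draw neutrophils, and their genes are switched on by NF-kB after IL-1, TNF or tissue damage. Cxcl9 and Cxcl10 bind Cxcr3 on T and NK cells and are interferon targets. Cxcl12, through Cxcr4 and Ackr3, guides leukocytes and progenitors in resting tissue, and Cxcl14 is likewise made without an inflammatory stimulus. Cxcl16 is made as a membrane-bound protein that ADAM proteases release and that binds Cxcr6. Pf4, platelet factor 4, is stored in platelet granules and is also made by some macrophages.

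The 3 members that fell most by 24 h, Cxcl1, Cxcl2 and Cxcl10, carry NF-kB type words in their promoters, and these are shown here because the values of the 3 genes moved together. RefSeq windows of 300 bases, 250 before and 50 after the transcription start, were available on build GRCm38.p6 for 7 of the 9 genes, all but Cxcl5 and Cxcl16. The NF-kB type word, GGG and TTCC set 3 bases apart (any bases between), was searched on both strands and found for 3 of these 7, Cxcl1, Cxcl2 and Cxcl10, and in 5.56% of all 32851 such windows. The interferon type word, GAAA followed after any 2 bases by another GAAA, was found for Cxcl10 and Cxcl14, and in 3.44% of all windows. Capitals mark these words in the stretches below, and forward and reverse matches of the palindromic core overlap by all but 1 base.
Cxcl1, chr5:90891141-90891199, plus strand: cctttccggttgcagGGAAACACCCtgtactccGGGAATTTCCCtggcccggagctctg
Cxcl2, chr5:90903787-90903845, plus strand: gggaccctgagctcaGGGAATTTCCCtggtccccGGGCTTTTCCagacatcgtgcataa
Cxcl10, chr5:92348969-92349117, minus strand: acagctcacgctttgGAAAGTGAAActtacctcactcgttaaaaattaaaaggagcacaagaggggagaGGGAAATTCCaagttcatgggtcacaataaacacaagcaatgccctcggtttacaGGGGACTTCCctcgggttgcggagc
Cxcl1 and Cxcl2 lie next to each other on chromosome 5 and share the run GGGAATTTCCC. The NF-kB type words of Cxcl1 lie between 89 and 61 bases before its start, those of Cxcl2 between 97 and 69. In Cxcl10 the first capitals are the interferon type word, 213 to 204 bases before the start, and the other 2 are of the NF-kB type. These are matches of letters, and no binding was measured.

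Across the 9 genes, Cxcl1, Cxcl2 and Cxcl10 fell from 2 h in both treatments. Pf4 fell from 2 h to 7 d with saline and rose over that span with INS37217. Between INS37217 and saline at the same time, Pf4 at 7 d alone passed in the test across all probe sets. Between 2 h and 24 h with saline 3 of the 9 genes passed, where 7.58% of all probe sets did, and the 3 fell (2.93% of all probe sets fell, and 4.65% rose). With INS37217 over that span 5 of the 9 passed, against 6.52% of all probe sets: 3 fell (3.30% of all) and 2 rose (3.23% of all). Between 2 h and 7 d with saline 5 of the 9 passed, against 5.44% of all probe sets: 4 fell (2.74% of all) and 1 rose (2.70% of all). With INS37217 4 of the 9 passed, against 4.91%: 3 fell (2.39% of all) and 1 rose (2.51% of all). Over the later span, 24 h to 7 d, Cxcl1 passed with INS37217 and no other gene did, against 2.21% of all probe sets. With saline none of the 9 passed in limma over that span, against 1.31%, though 3 had an unadjusted p under 0.05. The share of all probe sets under that unadjusted level was not computed. Nor is a share given for gaps between the ranges of different times, which are described below for single genes. A fit with the replicate number as a block called more probe sets in each comparison of times. Its share of all probe sets between 2 h and 24 h was 29.0% with saline and 22.1% with INS37217. For 24 h to 7 d it was 7.37% and 7.66%, and for 2 h to 7 d 21.9% and 17.9%. Where that fit changes the call of one of the 9 genes or of a receptor or ligand named below, its adjusted p is given as the one with the replicate number. The median change of the 9 genes from 2 h to 24 h was -0.27 with saline and -0.18 with INS37217, beside -0.05 and -0.06 over all genes.

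**Figure D1:**
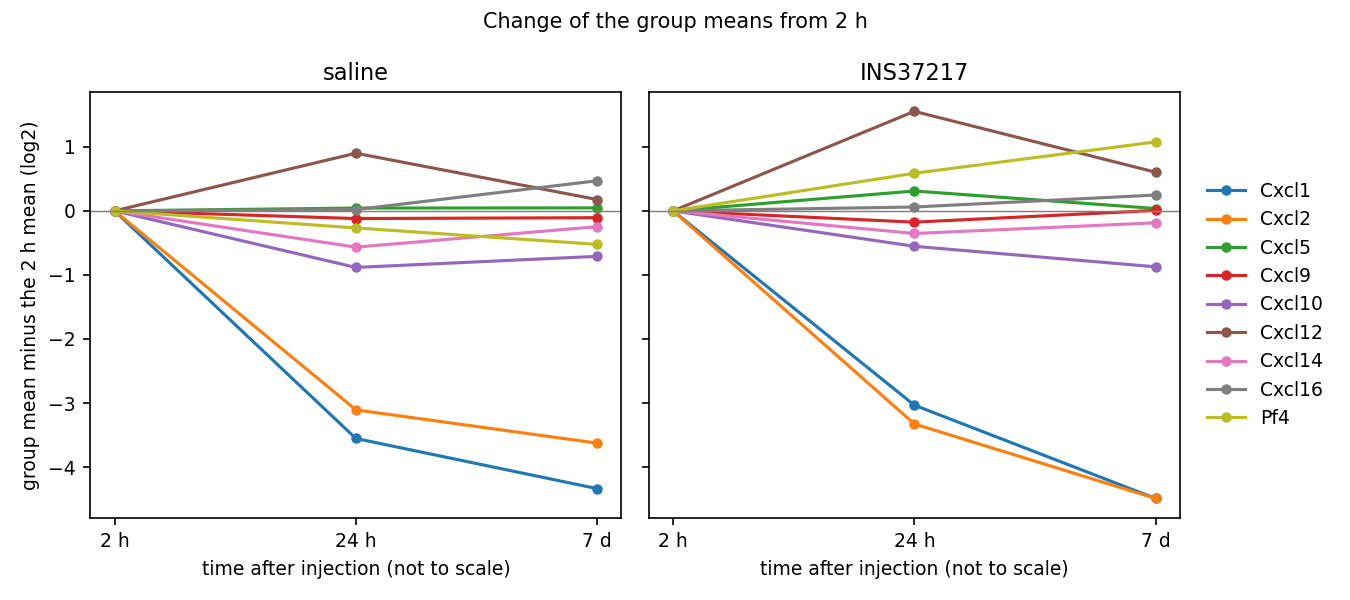
Group mean minus the 2 h mean of the same treatment (log2, y axis) at 2 h, 24 h and 7 d (x axis, not to scale) for the 9 genes, with saline on the left and INS37217 on the right. Each point is a mean of 3 arrays. Cxcl1 and Cxcl2 change by -3.55 to -3.03 by 24 h in both panels, the means of Cxcl12 are highest at 24 h, and Pf4 goes down with saline and up with INS37217.

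Cxcl1, the neutrophil attractant also known as KC, was highest at 2 h and lower at each later time. Its values in replicates 1, 2 and 3 were 8.44, 8.85 and 9.13 with saline at 2 h, 5.44, 5.17 and 5.15 at 24 h and 4.72, 4.46 and 4.23 at 7 d. With INS37217 they were 9.01, 9.32 and 9.13 at 2 h, 6.43, 5.92 and 6.01 at 24 h and 4.87, 4.39 and 4.73 at 7 d. The 6 groups fall into 3 levels by time, none of which overlaps another. Between 2 h and 24 h Cxcl1 fell by 3.55 (SE 0.19, adjusted p = 2.06e-08) with saline, an 11.7-fold drop. With INS37217 it fell by 3.03 (SE 0.19, adjusted p = 5.33e-08), or 8.19-fold. By 7 d it stood 20.2-fold below 2 h with saline and 22.5-fold below with INS37217. The later part of the fall, 24 h to 7 d, passed with INS37217 (-1.46, SE 0.19, adjusted p = 0.000327). With saline it was -0.78 (SE 0.19, adjusted p = 0.0635), and it passed with the replicate number in the model (adjusted p = 0.00527) and without saline 2 h replicate 1 or INS37217 24 h replicate 1 (0.0391 and 0.0497).

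Cxcl2, known as MIP-2 and a ligand of the same receptor, followed the same course. With saline it read 7.13, 8.37 and 7.86 at 2 h, 4.48, 4.90 and 4.66 at 24 h and 4.37, 4.06 and 4.05 at 7 d. With INS37217 it read 7.91, 8.85 and 8.67 at 2 h, 4.94, 4.86 and 5.65 at 24 h and 4.46, 3.61 and 3.89 at 7 d. All 2 h arrays lie above all later ones, and within a treatment the 24 h and 7 d arrays lie closer, without overlap. By 24 h it fell by 3.11 with saline (SE 0.32, adjusted p = 1.34e-05) and fell by 3.33 with INS37217 (SE 0.32, adjusted p = 4.56e-06). Between 2 h and 7 d Cxcl2 fell by 3.63 with saline (SE 0.32, adjusted p = 3.06e-06) and fell by 4.49 with INS37217 (SE 0.32, adjusted p = 2.13e-07). Since 2 of the INS37217 7 d values lie in the range of Cxcl5, a level that cannot be told from background, no fold is given for 7 d. Between 24 h and 7 d it changed by -1.16 with INS37217 (SE 0.32, adjusted p = 0.0818), which passed with the replicate number in the model (adjusted p = 0.00652) and without saline 2 h replicate 1 or INS37217 7 d replicate 1 (0.0405 to 0.0448).

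Cxcl5, the third Cxcr2 ligand among the 9, stayed at the low end of the scale on every array. Its lowest value was 3.27 and its highest 3.89, against a lowest value of 2.83 for any probe set. The deposited table holds no detection calls, so a level this low cannot be told from background. The highest array, INS37217 24 h replicate 3, read 3.89 where the other arrays of its group read 3.62 and 3.48. No difference of Cxcl5 passed, and the change from 2 h to 24 h with INS37217, 0.31 (SE 0.11, adjusted p = 0.14), passed with the replicate number in the model (adjusted p = 0.0338).

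**Figure D2:**
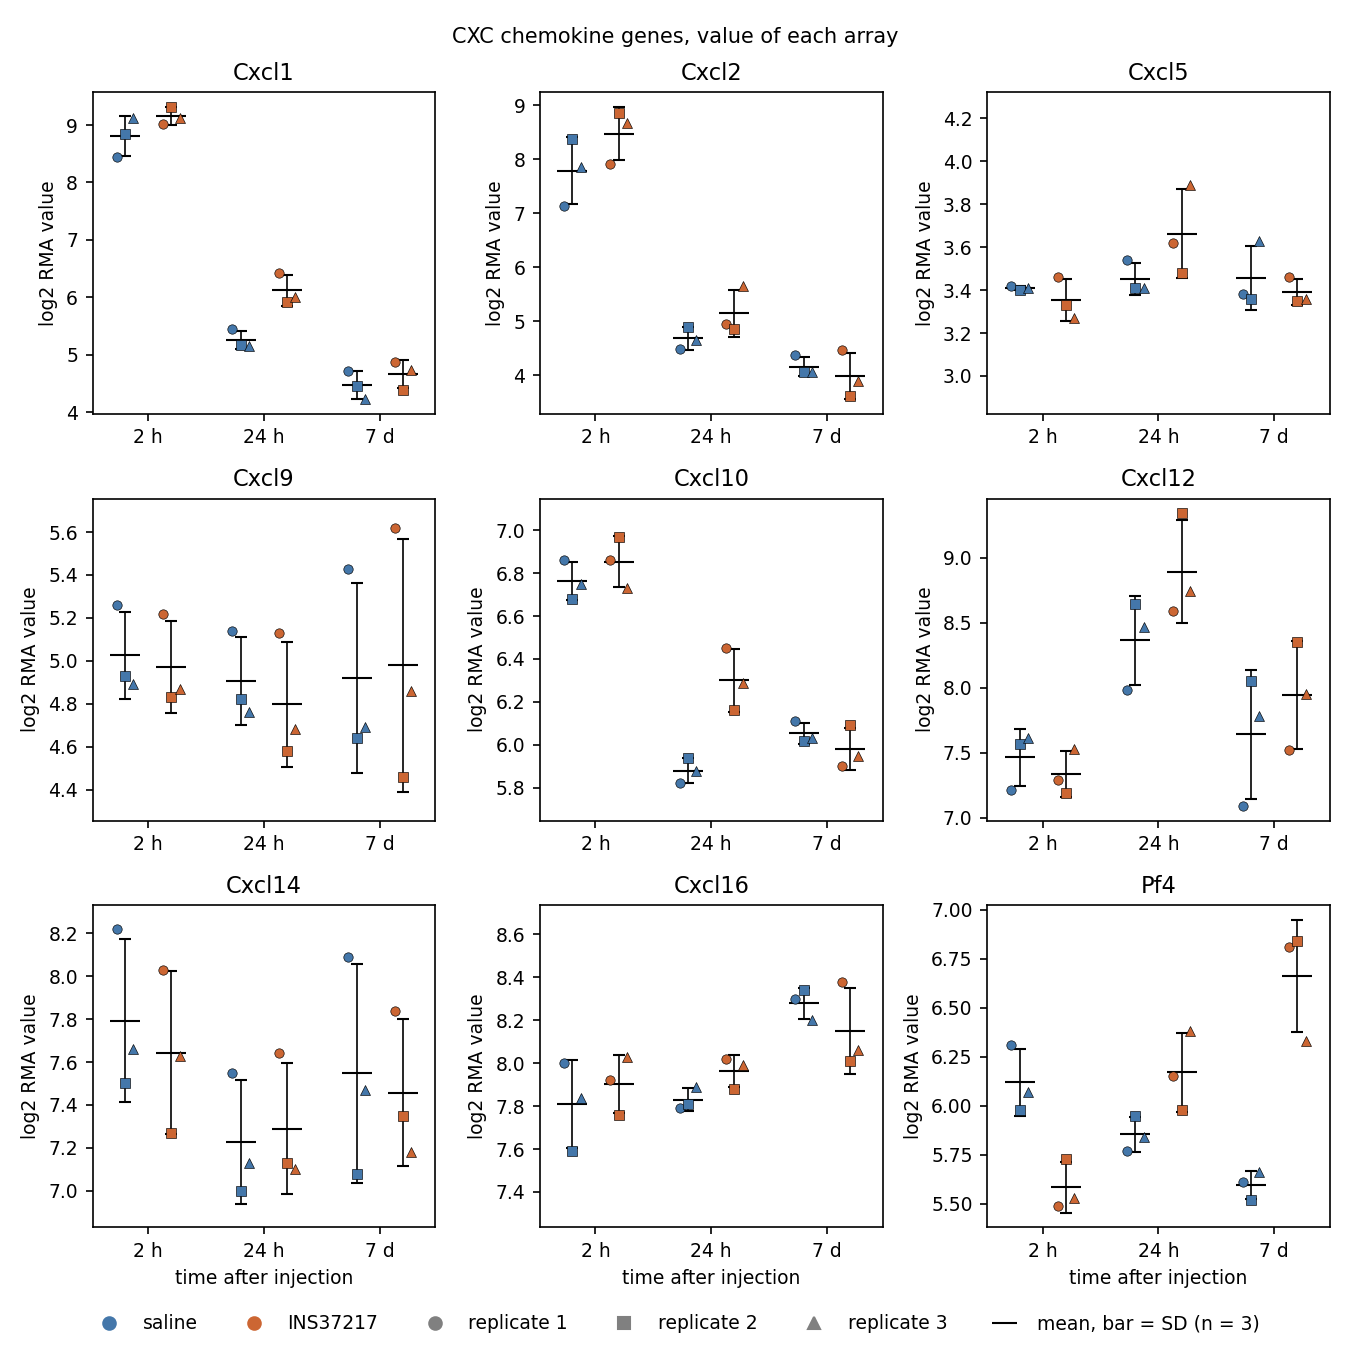
Log2 RMA value (y axis, a scale of its own for each gene) of each array by time after injection (x axis) for the 9 genes, saline in blue and INS37217 in orange, with symbols for the replicate number. Horizontal ticks are means of 3 arrays and bars the SD. All 2 h values of Cxcl1 and Cxcl2 lie above all their later values, and replicate 1 is the highest array of each group for Cxcl9.

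INS37217 was compared with saline at each time to ask whether it altered the response. At 24 h Cxcl1 was higher on all 3 INS37217 arrays (5.92 to 6.43) than on any saline array (5.15 to 5.44), a difference of 0.87 (SE 0.19) or 1.82-fold. Such a gap between ranges, INS37217 higher, occurred for 3.43% of all probe sets. It did not pass in the test across all probe sets (adjusted p = 0.155), where 0.119% of them passed. It passed with the replicate number in the model (adjusted p = 0.0107), which called 0.888% of all probe sets. At 2 h the difference was 0.35 (95% interval -0.06 to 0.76) and at 7 d 0.19 (-0.22 to 0.60), with overlapping ranges at both times. The change of the Cxcl1 difference between 24 h and 7 d was -0.67 (SE 0.27, unadjusted p = 0.0257, adjusted p = 1).

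For Cxcl2 the INS37217 values overlapped those of saline at every time. The differences were 0.69 at 2 h (95% interval 0.02 to 1.36, adjusted p = 1), 0.47 at 24 h (-0.20 to 1.14) and -0.17 at 7 d (-0.85 to 0.50). Neutrophil marker genes were read beside these. The mean of 11 such genes was 6.06 to 6.32 on saline 24 h arrays and 6.54 to 6.78 on INS37217 24 h arrays, against 5.68 to 6.29 on all other arrays. Of the 11, 10 were higher with INS37217 at 24 h, with a median of 0.21 beside -0.01 over all genes. Within that list S100a9, a calcium-binding protein abundant in neutrophils, was higher with INS37217 at 24 h by 1.62 (SE 0.26, adjusted p = 0.0243), and S100a8 by 1.48 (SE 0.30, adjusted p = 0.0952, with the replicate number 0.000819). S100a8 and S100a9 rose from 2 h to 24 h in both treatments, where Cxcl1 and Cxcl2 fell, and the other 9 did not pass. Over that span 3 of the 11 were higher at 24 h with saline and 5 with INS37217. The medians were -0.06 and -0.03, beside -0.05 and -0.06 over all genes. With the replicate number Csf3r, the G-CSF receptor gene, passed too over that span with INS37217 (0.62, SE 0.28, adjusted p = 0.272, with the replicate number 0.00336). The part of neutrophils in the values of Cxcl1 and Cxcl2 was not tested.

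Cxcl10, an interferon target, read 6.86, 6.68 and 6.75 with saline at 2 h, 5.82, 5.94 and 5.88 at 24 h and 6.11, 6.02 and 6.03 at 7 d. With INS37217 it read 6.86, 6.97 and 6.73 at 2 h, 6.45, 6.16 and 6.29 at 24 h and 5.90, 6.09 and 5.95 at 7 d. The 2 h arrays are highest in both treatments, and at 24 h the INS37217 arrays lie between the 2 h values and the saline 24 h values. By 24 h it fell by 0.88 with saline (SE 0.10, adjusted p = 4.48e-05) and fell by 0.55 with INS37217 (SE 0.10, adjusted p = 0.00269). By 7 d it was below 2 h by 1.64-fold and 1.83-fold. INS37217 against saline at 24 h gave 0.42 (SE 0.10, adjusted p = 0.28), with all INS37217 arrays above all saline arrays. Such a gap occurred for 3.43% of all probe sets. The difference of 0.42 passed with the replicate number in the model (adjusted p = 0.0442), which called 0.888% of all probe sets. The 2 h and 7 d differences were 0.09 (95% interval -0.13 to 0.31) and -0.07 (-0.29 to 0.14). The change of the difference from 24 h to 7 d was -0.49 (SE 0.14, unadjusted p = 0.00371, adjusted p = 1).

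Cxcl9, which shares the receptor Cxcr3 with Cxcl10, showed no change that passed in any comparison or under any setting tried. It read between 4.46 and 5.62, and replicate 1 was the highest array in each of the 6 groups. The 95% intervals of its treatment differences were -0.62 to 0.51 at 2 h, -0.68 to 0.46 at 24 h and -0.51 to 0.63 at 7 d. The 24 h difference of Cxcl10, 0.42, lies within the interval of Cxcl9 at that time. The 12 measured T and NK cell markers had a mean of 5.10 to 5.68 on all arrays, and none of them passed in any of the 9 comparisons. With the replicate number Cd3e, Cd4 and Cd8a, T cell genes, were lower at 24 h than at 2 h with saline (-0.41, -0.40 and -0.30, adjusted p = 0.027, 0.0253 and 0.0202). Prf1, the perforin gene, was then lower than at 2 h with INS37217 at 24 h and 7 d (-0.41 and -0.51, adjusted p = 0.0271 and 0.00837).

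Among the genes of interferon signalling, 5 of 12 rose from 2 h to 24 h with saline and 5 of 12 with INS37217. Of all probe sets 4.65% and 3.23% rose. In both treatments the 5 were Ifnar2, Stat2, Irf7, Irf8 and Irf9, and their direction is opposite to that of Cxcl10. Whether passed or not, 7 of the 12 were higher at 24 h with saline and 8 with INS37217. Irf9, the DNA-binding part of the complex that reads interferon type words, rose by 2.53 (SE 0.23, adjusted p = 4.84e-06) with saline and by 2.93 (SE 0.23, adjusted p = 6.85e-07) with INS37217. Its partner Stat2 rose by 1.91 and 2.19. By 7 d, against 24 h, Stat2, Irf1, Irf7, Irf8 and Irf9 fell in both treatments. Irf1, a direct activator of chemokine genes, stood at 7 d at -1.10 from its 2 h level with saline and at -1.07 with INS37217 (SE 0.13 for each, adjusted p = 5.28e-05 and 5.53e-05). At 24 h Irf1 and Irf7 differed between INS37217 and saline by 0.51 and 0.54 (adjusted p = 0.303 for each), and both passed with the replicate number in the model (adjusted p = 0.0197 and 0.0165).

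Of 16 measured genes that feed or restrain NF-kB, 6 fell, none rose and 10 did not pass from 2 h to 24 h with saline, with a median of -0.41 beside -0.05 over all genes. With INS37217, 5 fell and 1, the adaptor Myd88, rose and 10 did not pass, with a median of -0.42 beside -0.06. With the replicate number in the model 10 fell and 1 rose with saline, and 9 fell and 1 rose with INS37217. Il6, a cytokine made with these chemokines in many cells, fell by 3.78 with saline (SE 0.32, adjusted p = 1.82e-06) and fell by 3.91 with INS37217 (SE 0.32, adjusted p = 8.76e-07). Its 24 h values, 3.53 to 3.71 with saline and 3.60 to 3.84 with INS37217, lie in the range of Cxcl5 that cannot be told from background, so the size of its fall is not exact. Il1b, the IL-1 beta gene, fell by 1.28 with saline and fell by 0.85 with INS37217 (SE 0.22 for each). Nfkbiz and Nfkbia encode regulators of NF-kB that NF-kB itself induces. They changed by -1.58 and -1.13 with saline and by -0.96 and -0.88 with INS37217, which all passed. None of the 16 passed between INS37217 and saline at 24 h in limma; Il1b differed by 0.73 (SE 0.22, adjusted p = 0.557) and passed with the replicate number in the model (adjusted p = 0.0316).

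**Figure D3:**
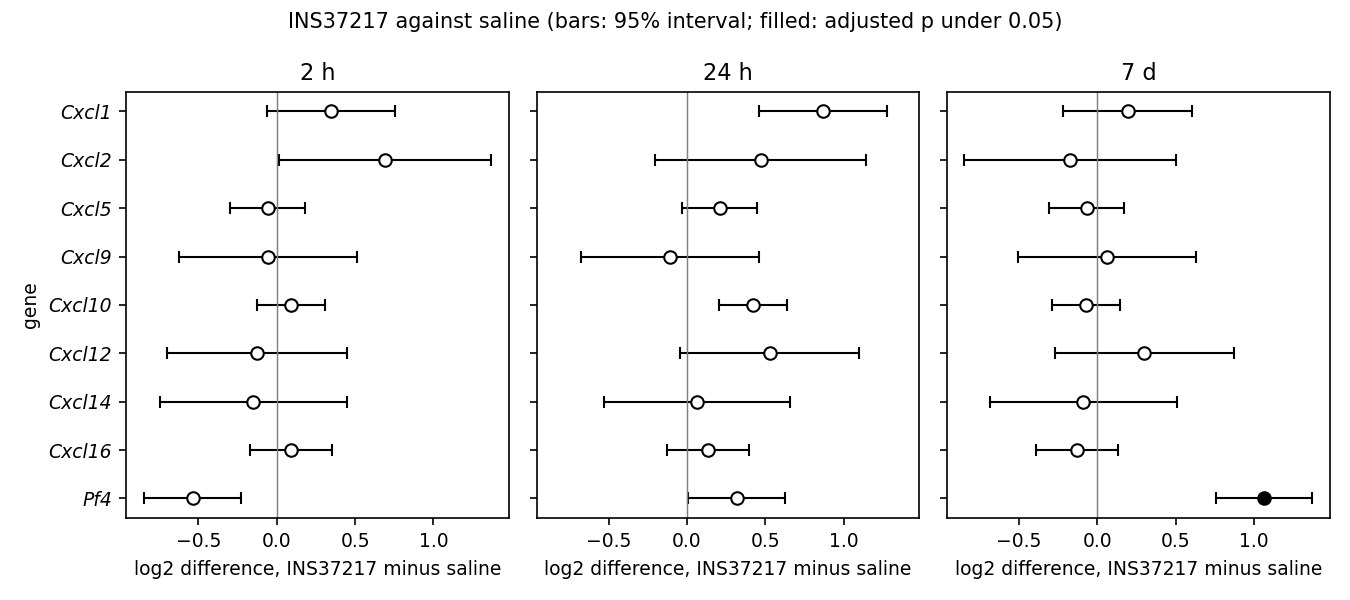
Difference between INS37217 and saline (log2, x axis) for the 9 genes (y axis) at 2 h, 24 h and 7 d. Points are differences of means of 3 arrays and bars their 95% intervals, and a filled point passed at an adjusted p under 0.05. Pf4 at 7 d, at 1.06, is the filled point, and at 24 h the intervals of Cxcl1, Cxcl10 and Pf4 lie above 0.

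Cxcl12, known as SDF-1, had its highest group means at 24 h, and its rise from 2 h passed with INS37217. With saline it read 7.21, 7.57 and 7.61 at 2 h, 7.98, 8.64 and 8.47 at 24 h and 7.09, 8.05 and 7.78 at 7 d. With INS37217 it read 7.29, 7.19 and 7.53 at 2 h, 8.59, 9.34 and 8.74 at 24 h and 7.52, 8.35 and 7.95 at 7 d. All 24 h arrays lie above all 2 h arrays. The rise with INS37217 was 1.55 (SE 0.27, adjusted p = 0.00163), or 2.93-fold. With saline it was 0.90 (SE 0.27, adjusted p = 0.0546). That value passed with the replicate number in the model (adjusted p = 0.00011) and in 6 of 18 omissions of 1 array, those of saline 24 h replicate 1, saline 7 d replicates 1 and 2, INS37217 24 h replicate 2 and INS37217 7 d replicates 1 and 2 (0.0267 to 0.0482). The rises in the 2 treatments differed by 0.65 (95% interval -0.16 to 1.46, adjusted p = 1). After 24 h it changed by -0.72 up to 7 d with saline (adjusted p = 0.366) and by -0.95 with INS37217 (adjusted p = 0.101), and both passed with the replicate number in the model (0.00385 and 0.000161). The INS37217 change also passed without saline 7 d replicate 1 (0.048). With INS37217 Cxcl12 stood at 7 d by 0.60 above 2 h (SE 0.27, adjusted p = 0.299, with the replicate number 0.00683).

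The second Cxcl12 probe set read 5.39 to 6.02 over all arrays. No change of it passed, and from 2 h to 24 h they were 0.02 with saline (95% interval -0.30 to 0.34) and 0.28 with INS37217 (-0.04 to 0.60). Which transcript forms each probe set reads was not analysed here. INS37217 against saline at 24 h gave 0.53 on the first probe set (95% interval -0.05 to 1.10) and 0.20 on the second (-0.12 to 0.52).

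Cxcl14 is the member whose probe sets differed in sign from 2 h to 24 h. On the first, values with saline were 8.22, 7.50 and 7.66 at 2 h, 7.55, 7.00 and 7.13 at 24 h and 8.09, 7.08 and 7.47 at 7 d. With INS37217 they were 8.03, 7.27 and 7.63, then 7.64, 7.13 and 7.10, then 7.84, 7.35 and 7.18. Replicate 1 is the highest array of each group here, so the groups overlap. The second probe set read 6.18, 5.88 and 6.33 with saline at 2 h and 6.62, 7.19 and 7.32 at 24 h, with no overlap. Over 2 h to 24 h with saline the first changed by -0.57 (SE 0.28, adjusted p = 0.283, with the replicate number 0.000437). Over the same span the second rose by 0.91 (SE 0.22, adjusted p = 0.0155), a call that was lost without saline 2 h replicate 2 or saline 24 h replicate 2 or 3 (adjusted p = 0.0757 to 0.0907). With INS37217 the corresponding changes were -0.35 (SE 0.28, adjusted p = 0.636, with the replicate number 0.0216) and 0.48 (SE 0.22, adjusted p = 0.274). At 7 d the second probe set was above 2 h by 0.61 with saline and 0.70 with INS37217 (adjusted p = 0.133 and 0.0866, with the replicate number 0.0167 and 0.00843). No direction for Cxcl14 as a gene can be read from them. Neither probe set passed between INS37217 and saline at any time, and the largest of these differences was 0.33 (95% interval -0.13 to 0.78) on the second at 7 d.

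**Figure D4:**
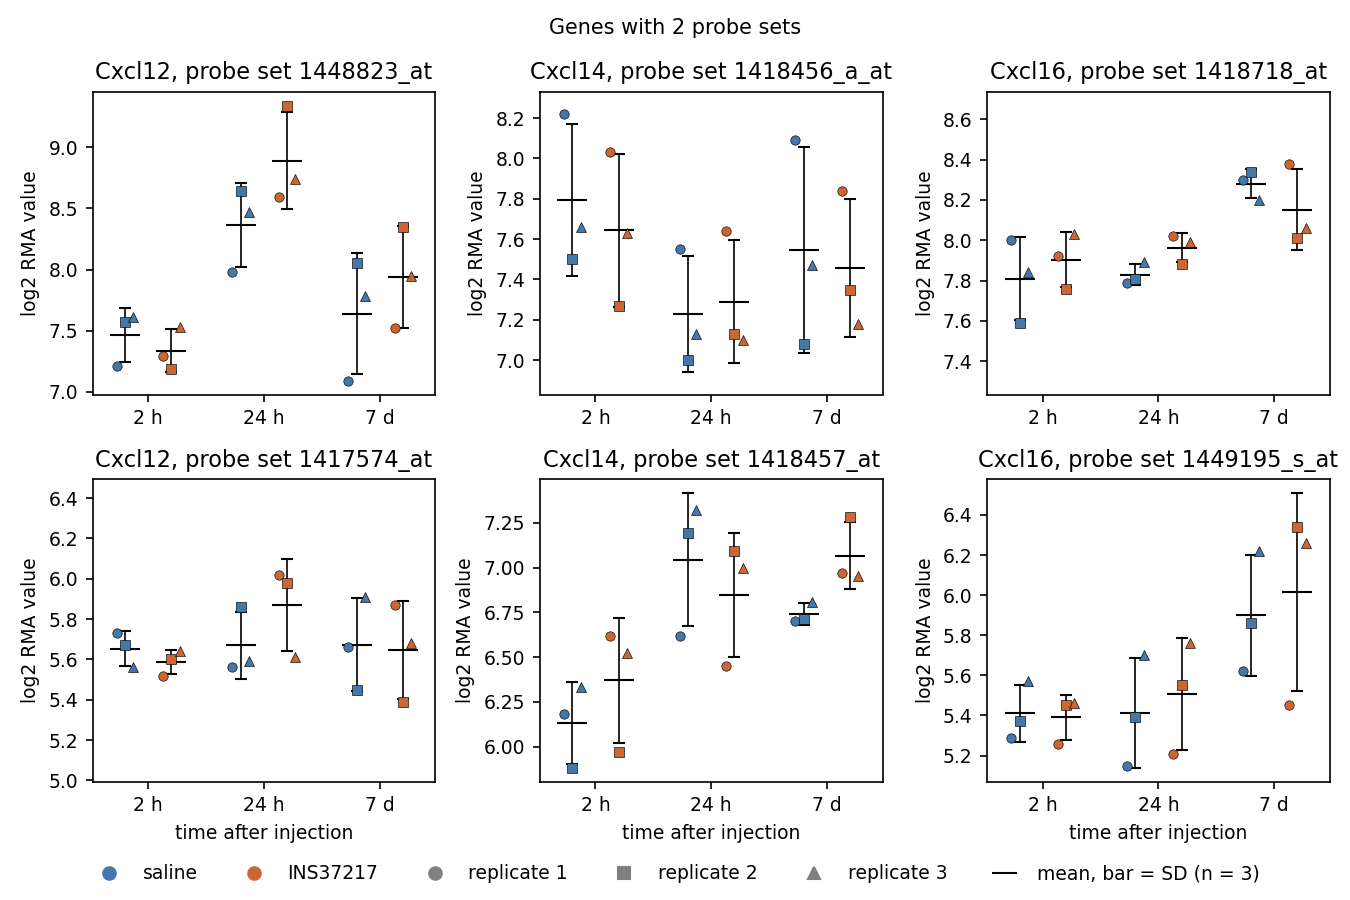
Log2 RMA value (y axis) of each array by time after injection (x axis) for both probe sets of Cxcl12, Cxcl14 and Cxcl16, the one of higher mean above. Saline is blue and INS37217 orange, symbols give the replicate number, and ticks and bars are mean and SD of 3 arrays. From 2 h to 24 h with saline Cxcl12 differs by 0.90 on the upper probe set and 0.02 on the lower, and Cxcl14 by -0.57 on the upper and 0.91 on the lower.

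Cxcl16, the membrane-bound ligand of Cxcr6, was a little higher at 7 d. With saline it read 8.0, 7.59 and 7.84 at 2 h, 7.79, 7.81 and 7.89 at 24 h and 8.30, 8.34 and 8.20 at 7 d, so the 7 d arrays lie above all earlier saline arrays. With INS37217 it read 7.92, 7.76 and 8.03, then 8.02, 7.88 and 7.99, then 8.38, 8.01 and 8.06, with overlap. Its rise from 2 h to 7 d was 0.47 with saline (SE 0.12, adjusted p = 0.0365), or 1.39-fold. The call was lost in 7 of 18 omissions of 1 array (saline 2 h replicates 2 and 3, saline 24 h replicate 2, saline 7 d replicates 1, 2 and 3 and INS37217 24 h replicate 3), with adjusted p up to 0.191. With INS37217 the change was 0.25 (95% interval -0.02 to 0.51, adjusted p = 0.386). On the second probe set the changes were 0.49 with saline and 0.63 with INS37217 (SE 0.22 for each, adjusted p = 0.286 and 0.156), and both passed with the replicate number in the model (0.00589 and 0.000946). Without INS37217 7 d replicate 1, at 5.45 the lowest of its group, the second of these passed at 0.0127. The saline change from 24 h to 7 d, 0.45 on the first probe set (adjusted p = 0.115), passed with the replicate number too (0.0095). On the second probe set the changes over that span were 0.49 with saline and 0.51 with INS37217 (adjusted p = 0.586 and 0.533). Both passed with the replicate number (0.0167 and 0.0101). INS37217 and saline differed by 0.09, 0.13 and -0.13 at 2 h, 24 h and 7 d on the first probe set, each with a 95% interval within -0.40 and 0.40.

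Pf4 was the member that separated the treatments. Its values with saline were 6.31, 5.98 and 6.07 at 2 h, 5.77, 5.95 and 5.84 at 24 h and 5.61, 5.52 and 5.66 at 7 d. With INS37217 they were 5.49, 5.73 and 5.53 at 2 h, 6.15, 5.98 and 6.38 at 24 h and 6.81, 6.84 and 6.33 at 7 d. Saline arrays step down with time and INS37217 arrays step up, so that INS37217 is below saline at 2 h and above it at 24 h and 7 d with no overlap at any time. Gaps of that kind occurred for 3.08% of all probe sets at 2 h (lower), 3.43% at 24 h (higher) and 2.36% at 7 d (higher). By mean, INS37217 7 d (6.66 ± 0.286, SD, n = 3) is highest, then INS37217 24 h (6.17 ± 0.201), saline 2 h (6.12 ± 0.171), saline 24 h (5.85 ± 0.0907), saline 7 d (5.60 ± 0.0709) and INS37217 2 h (5.58 ± 0.129). INS37217 24 h overlaps both of its neighbours in this order, and the last 2 groups overlap each other.

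At 7 d Pf4 was higher with INS37217 by 1.06 (SE 0.14, adjusted p = 0.00385), which is 2.09-fold, and it was the 1 of the 9 genes that passed, where 0.150% of all probe sets did (0.641% with the replicate number). It passed in all 18 omissions of 1 array (adjusted p at most 0.0364). In a fit of the 6 arrays of 7 d alone it was 1.06 with an adjusted p of 0.626. At 24 h the difference was 0.32 (SE 0.14, unadjusted p = 0.0448, adjusted p = 1). At 2 h it was -0.54 (SE 0.14, adjusted p = 0.402), and this passed with the replicate number in the model (adjusted p = 0.0405), which called 1.76% of all probe sets. Without that term limma called none of the 9 at 2 h and none at 24 h, with 0.128% of all probe sets called at 2 h. At those times 2 and 3 of the 9 had an unadjusted p under 0.05, a level at which the share of all probe sets was not computed.

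The difference itself changed with time. Between 2 h and 7 d it moved by 1.60 (SE 0.20, adjusted p = 0.00414), and Pf4 was the 1 of the 9 for which such a change passed, against 0.0884% of all probe sets. Between 2 h and 24 h it moved by 0.85 (SE 0.20, adjusted p = 0.369, where 0.0575% of all probe sets passed, and 0.0285 with the replicate number, where 1.07% did) and between 24 h and 7 d by 0.75 (SE 0.20, adjusted p = 1, where 0.0398% passed). Within INS37217, Pf4 rose by 0.59 from 2 h to 24 h (SE 0.14, adjusted p = 0.0218) and by 1.08 from 2 h to 7 d (SE 0.14, adjusted p = 0.000199). The 24 h call was lost without INS37217 2 h replicate 1 or 3 or INS37217 24 h replicate 3 (adjusted p = 0.0839 to 0.126). Between 24 h and 7 d the change was 0.49 (SE 0.14, adjusted p = 0.125), and it passed with the replicate number (0.0241) and without INS37217 7 d replicate 3 (0.0244). Within saline, Pf4 fell by 0.52 from 2 h to 7 d (SE 0.14, adjusted p = 0.0475). That call was lost in 13 of 18 omissions of 1 array (adjusted p up to 0.171), those of every array of saline and of 2 h and of INS37217 24 h replicate 1, and without replicate 1 of all groups (0.0505).

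**Figure D5:**
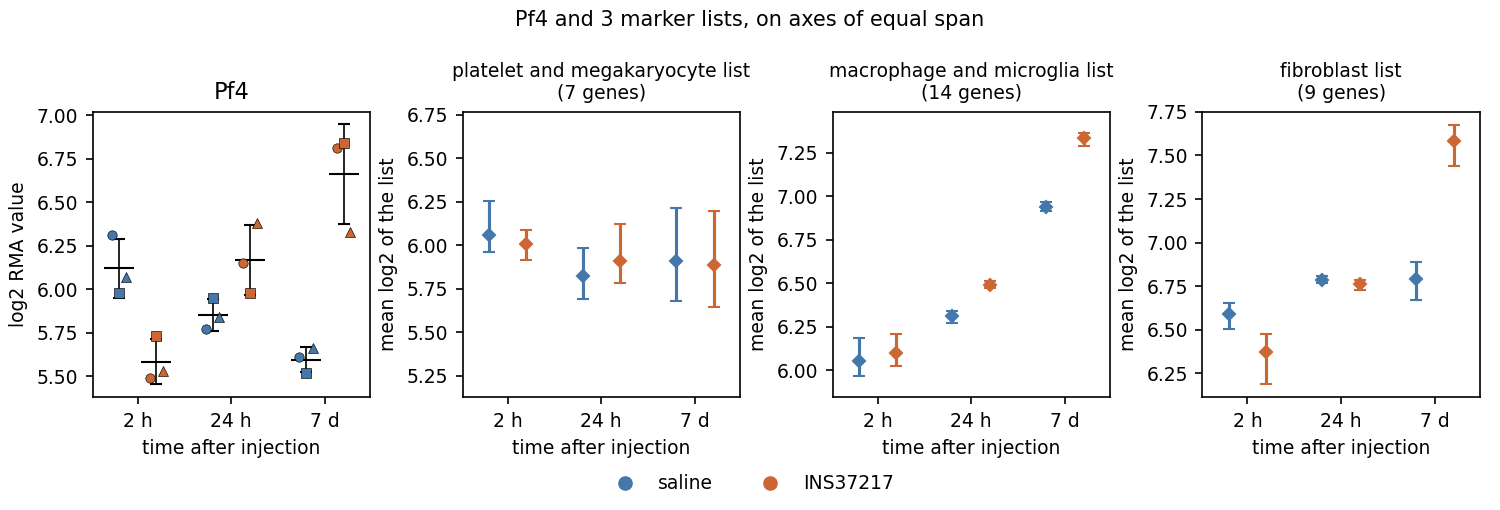
Pf4 (log2 RMA value of each array, with mean and SD) and the mean log2 value of 3 lists of marker genes (diamonds, with bars from the lowest to the highest array) by time after injection, saline in blue and INS37217 in orange, on y axes of equal span. At 7 d the macrophage and fibroblast lists are higher with INS37217, as Pf4 is, and the platelet list overlaps. At 2 h the fibroblast list is lower with INS37217, as Pf4 is. At 24 h, where Pf4 is higher with INS37217, the fibroblast list overlaps.

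Marker genes of platelets and macrophages, which can hold Pf4, and of fibroblasts were read beside it. The 7 measured platelet and megakaryocyte genes, Ppbp and Itga2b among them, had a mean of 5.68 to 6.21 on saline 7 d arrays and 5.64 to 6.20 on INS37217 7 d arrays. None of the 7 passed in any of the 9 comparisons, and 3 of 7 were higher with INS37217 at 7 d. With the replicate number and saline, Gp1bb and Treml1 were lower at 24 h than at 2 h (-0.46 and -0.55, adjusted p = 0.0341 and 0.00393) and Ppbp was lower at 7 d than at 2 h (-0.39, adjusted p = 0.0188). The 14 macrophage and microglia genes had a mean of 6.92 to 6.96 on saline 7 d arrays and 7.29 to 7.37 on INS37217 7 d arrays. Of these 13 were higher with INS37217, with a median of 0.30 beside -0.02 over all genes, and 1, the lysozyme gene Lyz2, passed (1.22, SE 0.14, adjusted p = 0.000708), while 3 passed with the replicate number. At 24 h the list had a mean of 6.27 to 6.34 with saline and 6.47 to 6.51 with INS37217. Over 2 h to 7 d with saline, over which Pf4 fell, 8 of the 14 rose and 1, Cd14, fell (2.70% and 2.74% of all probe sets). With INS37217 11 rose and 1, again Cd14, fell (2.51% and 2.39% of all). The 9 fibroblast genes had a mean of 6.67 to 6.89 with saline and 7.44 to 7.67 with INS37217 at 7 d, and 3 of them, Col1a2, Col3a1 and Postn, passed (5 with the replicate number). At 24 h the fibroblast list ran from 6.77 to 6.81 with saline and from 6.73 to 6.78 with INS37217. Of its 9 genes 3 were then higher with INS37217, with a median of -0.12. The part of these cells in the Pf4 difference was not tested.

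At 2 h, where Pf4 was lower with INS37217, other lists differed as well. The 3 red cell genes had a mean of 6.29 to 6.52 on saline 2 h arrays and 5.74 to 5.98 on INS37217 2 h arrays, and Alas2, the heme synthesis enzyme of red cell precursors, was lower by 1.37 (SE 0.18, adjusted p = 0.00493). The fibroblast list had a mean of 6.50 to 6.65 with saline and 6.19 to 6.47 with INS37217. Dcn, the decorin gene of that list, differed by -1.14 (SE 0.32, adjusted p = 0.476, with the replicate number 0.000292). Of the pigment epithelium list, the pigment cell genes Tyrp1 and Pmel were lower with INS37217 by 1.01 and 1.22 (SE 0.16 and 0.13, adjusted p = 0.0151 and 0.00149). In that list 5 of the 8 measured genes were higher with INS37217, with a median of 0.20 beside 0.0033 over all genes. The macrophage and microglia list ran from 5.97 to 6.19 with saline and from 6.02 to 6.21 with INS37217. The platelet list ran from 5.96 to 6.25 and from 5.91 to 6.09. Ppbp, a platelet chemokine whose gene neighbours Pf4, differed by -0.42 (SE 0.15, adjusted p = 0.948). The lens list and the actin gap given above differed between these groups too. Their part in the 2 h difference of Pf4 was not tested.

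Of the receptors for these ligands, Cxcr4 was the 1 of 9 that passed, in both changes from 2 h within INS37217. It is the receptor of Cxcl12, and its group means with saline were 3.89 at 2 h, 4.15 at 24 h and 4.03 at 7 d (SD 0.0917, 0.15 and 0.0681). With INS37217 they were 3.83, 4.58 and 4.46 (SD 0.118, 0.112 and 0.13). From 2 h Cxcr4 rose with INS37217 by 0.75 at 24 h (SE 0.11, adjusted p = 0.00035) and by 0.63 at 7 d (SE 0.11, adjusted p = 0.00227). With saline the changes were 0.26 and 0.14 (adjusted p = 0.203 and 0.641). INS37217 against saline gave 0.44 at 24 h (adjusted p = 0.316, with the replicate number 0.0379) and 0.42 at 7 d (adjusted p = 0.425, with the replicate number 0.0602). All values of Cxcr4 lie between 3.73 and 4.68, near the low end of the scale. None of Cxcr2, Cxcr3, Cxcr5, Cxcr6, Ackr1, Ackr2, Ackr3 and Ackr4 passed in any of the 9 comparisons without the replicate number, and Cxcr1 was not analysed here. With it Cxcr5, a B cell receptor, was lower at 24 h than at 2 h with saline (-0.30, SE 0.145, adjusted p = 0.271, with the replicate number 0.0367).

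The receptor of Cxcl1 and Cxcl2, Cxcr2, read 4.58 to 6.12 over all arrays, and INS37217 against saline at 24 h gave 0.44 (95% interval -0.41 to 1.29). Cxcr3 read 4.92 to 5.73 and Cxcr6 4.47 to 4.87. Ackr3, the scavenging receptor of Cxcl12, changed from 2 h to 7 d by 0.52 with saline (SE 0.28, adjusted p = 0.403, with the replicate number 0.037) and by 0.36 with INS37217 (SE 0.28). Ackr1, which binds many chemokines without signalling, gave -0.35 from 2 h to 7 d with saline (adjusted p = 0.379, with the replicate number 0.0105) and -0.32 from 2 h to 24 h with INS37217 (adjusted p = 0.441, with the replicate number 0.0186). Of 13 measured genes of receptor signalling, 1 passed from 2 h to 24 h, the G protein subunit gene Gnb1, which fell in both treatments. With the replicate number 4 passed in each treatment, 2 higher and 2 lower. Gnb1 had group means of 12.68 to 13.19. Over the same span 4 of 8 rod photoreceptor genes fell with saline and 6 with INS37217. Whether the fall of Gnb1 bears on chemokine receptors was not tested.

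The other CXC ligands measured were Cxcl11, Cxcl13, Cxcl15, Cxcl17 and Ppbp, and none passed on its probe set of higher mean, though Ppbp did with the replicate number, as given above. The second probe set of Cxcl13, a B cell attractant, rose by 0.41 from 2 h to 24 h with saline (SE 0.11, adjusted p = 0.0396), where the first gave -0.21 (SE 0.20). Cxcl11, the remaining Cxcr3 ligand, had group means between 5.63 and 5.86. Of 9 proteases that cut or shed these ligands, Mmp3, a matrix metalloproteinase that trims several chemokines, was the 1 that passed between treatments, and Mmp2 passed at 7 d with the replicate number (0.49, SE 0.12, adjusted p = 0.339, with the replicate number 0.0326). At 24 h Mmp3 was higher with INS37217 by 1.27 (SE 0.21, adjusted p = 0.0263). From 2 h to 24 h Mmp3 rose by 1.23 with saline and by 2.61 with INS37217 (SE 0.21 for each). Mmp2, which cuts Cxcl12, rose from 2 h to 7 d with INS37217 by 0.60 (SE 0.12, adjusted p = 0.00656).

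The patterns of single genes over the 18 arrays were compared by Pearson's r after the mean of each replicate number was removed. This describes arrays that share times and treatments, and no test was made. Cxcl1 and Cxcl2 had r = 0.9831 with each other, and Cxcl10 had 0.9404 with Cxcl1 and 0.9198 with Cxcl2. Outside the 9 genes, Gcnt2 was the most like Cxcl1 (0.9929), Cxcl2 (0.9857) and Cxcl10 (0.9573). Next were Fgl2 and Adamts1 for Cxcl1, Fosl1 and Phlda1 for Cxcl2, and Nfkbia and Ptx3 for Cxcl10. For Cxcl12 they were the interferon-induced genes Ifih1 (0.9608), Ifitm3 (0.9606) and Rtp4 (0.957). For Pf4 they were Fn1, the fibronectin gene (0.8272), Mmp14 (0.8022) and Cnn2 (0.7956), and for Cxcl16 Upk3b (0.9076), Kcnip4 (0.8914) and Glra3 (0.8863).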

How the data were processed

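The values were deposited by the authors as log2 values computed by RMA, per the submitters' processing notes; those notes name neither a version nor settings. They were used as deposited. Of 22690 probe sets 64 controls were left out. By the platform's annotation 20380 probe sets had 1 gene, 691 several and 1555 none. The test was limma 3.58.1 under R 4.3.3 (lmFit, contrasts and eBayes on 18 arrays, 1 mean for each of 6 groups, 12 residual and 3.3 prior degrees of freedom), with p adjusted by Benjamini and Hochberg over 22626 probe sets and a threshold of 0.05. "Passed", "rose" and "fell" refer to this. All p are two-sided. With 3 arrays a group, their number limits the precision. The steps were tested on simulated data.

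Whether replicate numbers pair the arrays was checked on the values. With group means taken off, correlations between arrays that share a number ran from 0.426 to 0.921 (45 pairs). Those of replicate 2 with 3 ran from 0.363 to 0.725 (30 pairs), and those of replicate 1 with 2 or 3 from -0.847 to -0.501. The first 2 ranges overlap, so the values set replicate 1 apart and do not show that arrays sharing a number are matched. The labels do not say what the numbers stand for. A second fit had the replicate number as a block (10 residual and 10.5 prior degrees of freedom). The array labelled 7 d whose source name gives 2 h correlated at most at 0.979 with saline 2 h arrays, and was kept at 7 d.

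The 9 genes, the 6 pathway lists and the 11 lists of cell markers were chosen with earlier results of these data known. Named were the 9 genes, all measured CXC receptors and other CXC ligands, and from other lists at most 4 genes a comparison among those that passed; further genes named beside a count were chosen after their values were seen. The genes of most similar pattern are the 3 of highest correlation. Promoter sequences are RefSeq's.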

Additional observations from a re-analysis of the deposited data

Results flagged for a closer look

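The difference of Pf4 between INS37217 and saline moved by 1.60 between 2 h and 7 d (SE 0.20, limma adjusted p = 0.00414), from -0.54 to 1.06. It was picked out because the test of the change itself passed. All 3 INS37217 arrays were below all saline arrays at 2 h and above them at 7 d. The change kept its call in all 18 omissions of 1 array (adjusted p 0.000977 to 0.0185).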

How the results depend on the processing

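Of 108 differences (9 genes, 12 comparisons), 20 passed, 17 more passed only under an alternative and 71 under none. All 20 kept their sign under every alternative that gave a value. With the replicate block all 20 passed, and besides the gains named above and below it changed no call of the 108. Counts of the 9 genes that passed moved as follows. INS37217 against saline at 2 h went from 0 to 1 with the replicate block. At 24 h it went from 0 to 2 with the replicate block, and to 1 after quantile normalization or with replicates 2 and 3 alone. At 7 d it went from 1 to 0 with a filter at the median level, which leaves out Pf4, or with only the arrays compared. From 2 h to 24 h, saline went from 3 to 5 with the block and with replicates 2 and 3 and to 4 after quantile normalization or with only the arrays compared and to 1 with the filter. INS37217 went from 5 to 7 with the block, 6 with replicates 2 and 3, 3 with only the arrays compared and 1 with the filter. From 24 h to 7 d, saline went from 0 to 3 with the block, 3 with replicates 2 and 3, 1 after quantile normalization and 2 with the mean of a gene's probe sets. INS37217 went from 1 to 4, 3, 3 and 2 under the same settings and to 0 with the filter. From 2 h to 7 d, saline stayed at 5 with the block and went to 4 with replicates 2 and 3, after quantile normalization or with trend and robust, 3 with only the arrays compared and 1 with the filter. INS37217 went from 4 to 5 with the block, with replicates 2 and 3 or with the mean of a gene's probe sets and to 0 with the filter. The change of the treatment difference from 2 h to 24 h went from 0 to 1 with the block, and that from 2 h to 7 d from 1 to 0 with the filter. Where a gene is lost to the filter it was not computed; for other settings the cause was not tested. The mean of both probe sets turned the 24 h change of Cxcl14 to 0.17 with saline and 0.0617 with INS37217. Leaving out 1 array gave 3 to 4 genes from 2 h to 24 h with saline and 4 to 5 with INS37217, 0 to 1 and 1 to 2 from 24 h to 7 d, 3 to 5 and 4 from 2 h to 7 d, and 0, 0 and 1 for INS37217 against saline. Over all probe sets, INS37217 against saline called 29, 27 and 34 at 2 h, 24 h and 7 d, against 398, 201 and 145 with the block, 304, 153 and 129 with replicates 2 and 3 and 0, 2 and 0 with only the arrays compared. From 2 h to 24 h the counts were 1714 with saline and 1476 with INS37217, against 6564 and 5002 with the block. From 24 h to 7 d they were 297 and 501 against 1668 and 1733, and from 2 h to 7 d 1231 and 1110 against 4946 and 4047.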
